A study of Mus musculus with 64 samples.

Results

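The results below concern the 6 kinases that phosphorylate SR proteins in mouse cells: the CDC-like kinases Clk1, Clk2, Clk3 and Clk4 and the SR protein kinases Srpk1 and Srpk2. They were found by symbol in a table of RNA-seq counts for 55335 genes, in which each of the 6 was present and passed the filter on low counts. SR proteins are splicing factors that carry a tail rich in serine and arginine, and the phosphorylation of that tail sets where they sit and what they bind. SRPK proteins act mainly in the cytoplasm and add the phosphates that let the transportin Tnpo3 carry SR proteins into the nucleus, whereas CLK proteins act in the nucleus, phosphorylate the tails further and release SR proteins from nuclear speckles to sites of transcription. Clk1 and Clk4 are also known for transcripts that keep introns in the nucleus and are spliced when kinase activity is lost.

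The cells were V6.5 mouse embryonic stem (mES) cells, either wild type (WT) or carrying a degron, a tag that marks a protein for rapid destruction, on 1 of the 12 subunits of RNA polymerase II (RPB1 to RPB12). According to the protocols, doxycycline for 12 h induced OsTir1, the auxin receptor that recognises the degron, and 500 µM IAA (auxin) was then added or left out. The doxycycline dose is 2 µg/ml in the treatment protocol and 1 µg/ml in the series text, and all cells grew in medium with 3 µM CHIR99021 and 0.5 µM PD0325901, inhibitors of GSK3 and of MEK. Untreated cells were compared with cells after 12 h of IAA in WT and in all 12 degron lines (26 groups, 52 libraries, poly(A) selected), and 0 h was compared with 1 h of IAA in RPB1, RPB3 and RPB6 (6 groups, 12 libraries, library type not given in the sources used here). Each group had 2 libraries, and no label names separate cultures for them. The p-values rest on the spread between libraries of the same group, estimated over all groups of a fit, and that spread may be technical. No label says whether WT cells carried OsTir1 or whether each degron line is 1 clone.

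The 6 genes differ widely in length. By the GENCODE M21 annotation on mm10, Clk1 (ENSMUSG00000026034) lies on the minus strand at chr1:58410189-58424066 and spans 13.878 kb. Clk2 (ENSMUSG00000068917) lies on the plus strand at chr3:89164795-89176921 and spans 12.127 kb. Clk3 (ENSMUSG00000032316) lies on the minus strand at chr9:57750624-57765860 and spans 15.237 kb, and Clk4 (ENSMUSG00000020385) lies on the plus strand at chr11:51261730-51281766 and spans 20.037 kb. The SRPK genes are longer: Srpk1 (ENSMUSG00000004865) spans 35.062 kb on the minus strand at chr17:28587648-28622709, and Srpk2 (ENSMUSG00000062604) spans 181.354 kb on the minus strand at chr5:23503264-23684617. Transcripts annotated as keeping an intron numbered 7 of 13 for Clk1, 4 of 11 for Clk2, 4 of 9 for Clk3, 7 of 14 for Clk4, 6 of 13 for Srpk1 and 3 of 10 for Srpk2, and counts per gene do not separate them from the coding forms. Exons of Clk3 share 1284 bp with the opposite-strand gene Edc3, and exons of Srpk2 share 972 bp with the opposite-strand gene Kmt2e. Whether the counting used strand was not stated by any label, so reads in those stretches cannot be assigned with certainty, and the same holds for reads in stretches that Clk1 and Clk4, which are close paralogs, might share.

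The promoter windows of Clk3, Clk4 and Srpk2 are shown because Clk3 and Clk4 were called in the same direction in 7 of 13 lines after 12 h of IAA. Srpk2 was called lower in all 7. These are the 5 in which both were higher, and RPB2 (Srpk2 -1.03) and RPB6 (Srpk2 -1.58), in which both were lower. Windows run from 250 bases before to 50 after the RefSeq start on GRCm38.p6, 5′ to 3′ on the gene's strand, with motif matches in capitals, and the RefSeq start need not be the start in the GENCODE annotation above. The Clk3 window is chr9:57765065-57765364, the Clk4 window chr11:51262864-51263163, and the Srpk2 window, the one of 3 listed for that gene that held a GC box, chr5:23675918-23676217.
Clk3: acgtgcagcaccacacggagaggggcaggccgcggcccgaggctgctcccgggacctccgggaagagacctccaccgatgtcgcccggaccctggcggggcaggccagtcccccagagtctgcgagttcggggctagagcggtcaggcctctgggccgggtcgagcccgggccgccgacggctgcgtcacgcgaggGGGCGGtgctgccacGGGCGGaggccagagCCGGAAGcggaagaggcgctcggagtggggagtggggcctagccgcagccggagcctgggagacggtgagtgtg
Clk4: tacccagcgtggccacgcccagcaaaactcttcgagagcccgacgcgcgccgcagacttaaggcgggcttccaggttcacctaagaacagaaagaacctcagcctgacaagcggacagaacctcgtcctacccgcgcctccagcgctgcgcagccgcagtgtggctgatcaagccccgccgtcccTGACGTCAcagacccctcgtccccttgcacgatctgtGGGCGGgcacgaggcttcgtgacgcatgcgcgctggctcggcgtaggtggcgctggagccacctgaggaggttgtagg
Srpk2: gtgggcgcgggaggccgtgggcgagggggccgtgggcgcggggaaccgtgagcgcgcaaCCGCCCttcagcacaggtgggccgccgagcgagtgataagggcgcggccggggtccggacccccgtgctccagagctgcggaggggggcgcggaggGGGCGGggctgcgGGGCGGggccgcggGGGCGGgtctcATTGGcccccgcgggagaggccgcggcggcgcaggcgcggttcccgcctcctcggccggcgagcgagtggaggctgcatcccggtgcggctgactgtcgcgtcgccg
The motifs were searched on both strands. They were the core promoter element TATAAA, the box read by the factor NF-Y as CCAAT, the Sp1 site known as the GC box with the letters GGGCGG, the cyclic AMP response element with the letters TGACGTC, the E-box with the letters CACGTG, the AP-1 site with the letters TGACTCA and the ETS site with the letters CCGGAAG. Over 7 windows of 5 members, the GC box occurred in 5 windows, 1 for each of Clk2, Clk3, Clk4, Srpk1 and Srpk2, beside 35.66% of 32851 RefSeq promoter windows of the same length. The Clk4 window held TGACGTC on the plus strand from -65 to -59 and on the minus strand from -64 to -58, counted with the start as 0, so these matches overlap, and 3.205% of all windows held that motif. The Clk3 window held 2 GC boxes and CCGGAAG from -24 to -18, the latter in 8.858% of all windows. The Srpk2 window held 4 GC boxes and CCAAT on the minus strand from -57 to -53, the latter in 37.41% of all windows. TGACTCA was in 0 of the 7 windows. These are matches of letters only.

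Libraries held 3399838 to 7164928 counts at 12 h and 8598431 to 13281252 at 0 h and 1 h. All 12 of 12 listed stem cell markers (Pou5f1, Sox2, Nanog and others) were detected at 1 CPM (counts relative to the TMM-scaled depth of the library, the unit of all levels here) or more in untreated cells, with a summed level of 5454 to 7944 CPM in untreated libraries and 3404 to 10020 CPM after 12 h of IAA. After IAA the lowest sum was in RPB1 and the highest in RPB2. Markers of other lineages moved with IAA in some lines. Neuroectoderm markers summed to 51.0 to 104 CPM in untreated libraries and 44.3 to 140.2 CPM after IAA, with 63.3 and 64.3 CPM before and 130.4 and 140.2 CPM after it in RPB9, and 55.6 and 56.5 CPM before and 114.7 and 138.5 CPM after it in RPB3. Trophectoderm markers summed to 80.3 to 144 CPM untreated and 62.7 to 187 CPM after IAA (86.8 and 98.3 against 145 and 187 CPM in RPB2). Mesoderm markers summed to 8.70 to 26.8 CPM untreated and 2.36 to 19.9 CPM after IAA (23.1 and 26.8 against 4.76 and 6.52 CPM in RPB2), and primitive endoderm markers to 3.63 to 20.2 and 1.69 to 23.1 CPM. Their part in the results was not tested. Fibroblast markers summed to 2.94 to 12.6 CPM in untreated libraries and 2.09 to 21.1 CPM after IAA (6.41 and 7.97 against 20.95 and 21.1 CPM in RPB1). Of the 7, 5 (Col1a2, Col3a1, Dcn, Lum and Postn) had a mean below 0.1 CPM over untreated libraries. In bulk RNA, fewer cells of a type and less RNA per cell cannot be told apart. Counts are shares of a library, scaled here by TMM (trimmed mean of M values), which centres most genes near no change. A fall of all mRNAs together would not show, and reads of the added fly cells were not analysed here.

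Over the 26 untreated libraries Srpk1 had the highest median level of the 6 mRNAs per kilobase of exon. Its level per kilobase had a median of 17.07 CPM (14.24 to 21.06), followed by Clk2 at 12.9 (11.18 to 18.21), Clk1 at 11 (7.54 to 22.1), Clk4 at 6.69 (4.23 to 19.0), Clk3 at 6.49 (4.98 to 12.6) and Srpk2 at 5.92 (4.41 to 7.18). Srpk1 was above Clk2 in 24 of 26 libraries and Clk1 was above Clk4 in 26 of 26. Other neighbours in this order changed places: Clk2 was above Clk1 in 16 of 26 libraries, Clk4 above Clk3 in 12 of 26 and Clk3 above Srpk2 in 20 of 26. In untreated RPB7, Srpk1 (15.08 and 15.85) lay below Clk1 (22.1 and 19.99), Clk4 (19.02 and 17.95) and Clk2 (18.21 and 17.5). In untreated RPB10, Srpk1 (17.93 and 17.52) lay below Clk1 (18.67 and 19.22). On the scale of CPM for a whole gene, used from here on to compare libraries, Srpk1 and Srpk2 varied least between untreated lines, with highest to lowest line means of 1.33 and 1.55 times. Clk4 varied most, by 4.01 times, from 26.7 CPM in RPB3 to 107.2 CPM in RPB7.

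After 12 h of IAA the 6 mRNAs did not move as 1 group. Srpk2 fell in 9 degron lines and rose in none. With libraries scaled to mitochondrial mRNAs, its values in RPB3 (0.032) and RPB11 (-0.235) were not called. Clk3 and Clk4 each rose in 6 lines and fell in RPB2 and RPB6, and Clk1 fell in 4 lines and rose in 3. Clk2 fell in 6 lines and rose in RPB10, and Srpk1 fell in 4 lines and rose in 3. With libraries scaled to mitochondrial mRNAs instead, the counts of lines in which Clk1, Clk2, Clk3, Clk4 and Srpk1 were higher became 1, 0, 1, 1 and 1. All 6 genes passed the test (edgeR's quasi-likelihood F-test, Benjamini-Hochberg adjusted p under 0.05 over 17928 genes) in RPB3, RPB5 and RPB6, where 47.7%, 59.1% and 60.7% of all genes passed. Split by direction, the shares of all genes called higher and lower at 12 h were, for WT (0.803%, 0.842%), RPB1 (35.8%, 30.5%), RPB2 (27.9%, 34%), RPB3 (24.4%, 23.3%), RPB4 (1.13%, 0.948%), RPB5 (31%, 28.1%) and RPB6 (27.3%, 33.4%). In the other lines they were, for RPB7 (20.2%, 21.1%), RPB8 (31.5%, 30.2%), RPB9 (16.8%, 18%), RPB10 (18.2%, 21.2%), RPB11 (10.6%, 13.1%) and RPB12 (2.14%, 2.65%). In RPB1, RPB2 and RPB8, 5 of the 6 passed, against 66.3%, 61.9% and 61.7% of all genes. In RPB9 and RPB10, 4 passed, against 34.8% and 39.4%, in RPB7 3 passed, against 41.3%, and in RPB11 2 passed, against 23.7%. Of the 78 tests of a gene in a line, 59.0% passed (19 higher and 27 lower). Of all gene tests over the same lines, 19.1% were called higher and 19.8% lower. With 6 genes these counts were not tested against the background.

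No member passed in WT, RPB4 or RPB12, in which 1.65%, 2.08% and 4.79% of all genes did. Without adjustment, 0 members in WT, 0 in RPB4 and 1 in RPB12 (Srpk2, -0.28 ± 0.11) had p under 0.05 in edgeR, and DESeq2 called 0 in each. With only the 4 libraries of the line in the fit, edgeR called Srpk2 lower in RPB12 (-0.285, adjusted p = 0.0249). In WT the 6 log2 fold changes lay between -0.14 and 0.081. In RPB4 they lay between -0.13 and 0.10, and in RPB12 between -0.28 and 0.14. Groups of 2 libraries can lie apart without a call. Those of Clk1 in WT, Clk2 in RPB4 and Clk2 in RPB12 did not overlap (edgeR's test, adjusted p = 0.726, 0.947 and 0.689). Nor did those of Clk4 and Srpk1 in WT, Srpk2 in RPB4, and Clk3 and Srpk2 in RPB12. The share of all genes whose groups did not overlap was not computed, so a lack of overlap is given below as description only. The median log2 fold change of the 6 was -1.785 in RPB2 and -1.49 in RPB6, beside -0.19 and -0.13 for all genes tested, and between -0.44 (RPB1) and 0.34 (RPB8) in the remaining lines.

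**Figure D1:**
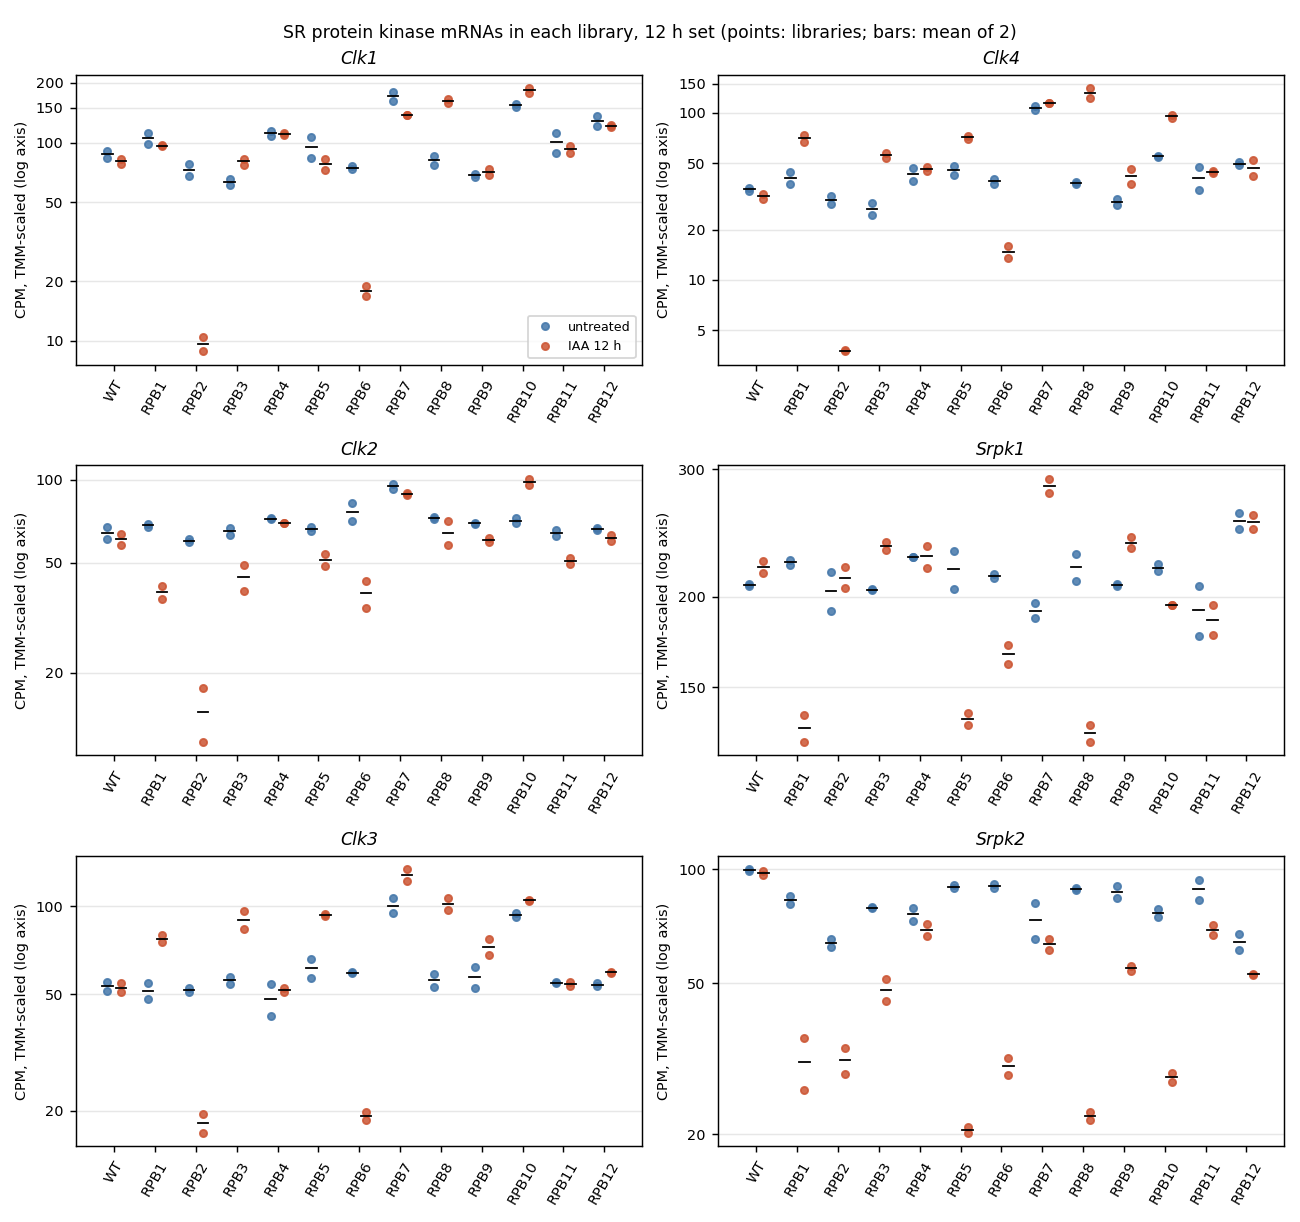
CPM scaled by TMM (log axis, a different range in each panel) of each kinase mRNA in the 52 libraries of the 12 h set, untreated (blue) and after 12 h of IAA (red); points are libraries and bars the mean of 2. Clk1 and Clk4 are lowest in RPB2 after IAA, and Srpk2 is lower after IAA in most lines while the WT means are 99.3 CPM untreated and 97.7 CPM after IAA.

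Clk4, a nuclear kinase that phosphorylates SR protein tails, had the largest changes. In WT it was at 35.8 and 34.1 CPM untreated and 32.9 and 30.5 CPM after IAA. In RPB2 it went from 28.4 and 31.9 CPM to 3.81 and 3.73 CPM, and in RPB6 from 37.4 and 40.4 to 13.6 and 15.9 CPM. Both falls left no overlap between groups, although the RPB2 value after IAA rests on 8 counts in each library. The log2 fold changes ± SE were -3.0 ± 0.26 (adjusted p = 6.27e-14) in RPB2 and -1.40 ± 0.17 (adjusted p = 5.65e-10) in RPB6. In RPB8 the level moved the other way, from 38.5 and 37.7 CPM to 142 and 122 CPM, a log2 fold change of 1.79 ± 0.12 (adjusted p = 1.66e-17), or 3.47-fold. The rise in RPB8 was 0.285 and did not pass when libraries were scaled to mitochondrial mRNAs. In RPB3 Clk4 rose from 29.0 and 24.5 to 57.3 and 54.0 CPM (1.06 ± 0.13). In RPB10 it rose from 54.8 and 55.1 to 97.1 and 93.5 CPM (0.79 ± 0.11), in RPB1 from 37.5 and 44.3 to 74.2 and 67.0 CPM (0.79 ± 0.12), and in RPB5 from 47.9 and 42.7 to 72.6 and 69.9 CPM (0.66 ± 0.12). None of these groups overlapped, and in RPB10, RPB1 and RPB5 the mitochondrial scaling kept the sign (0.54, 0.22 and 0.13) without a call. The smallest called rise was in RPB9, from 28.2 and 30.4 to 37.7 and 46.2 CPM (0.52 ± 0.13), and it was not called without RPB9 IAA replicate 2 (0.35). In RPB7, RPB11 and RPB12 Clk4 did not pass, with 115 and 114 CPM after IAA in RPB7 beside 110.3 and 104 CPM before it.

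Clk1, the best studied of the CLK kinases, fell furthest in the same lines as Clk4. It was at 83.9 and 90.7 CPM in untreated WT and 78.2 and 82.8 CPM in WT after IAA. In RPB2 it dropped from 68.0 and 78.2 to 10.5 and 8.85 CPM, and in RPB6 from 75.8 and 73.7 to 16.9 and 18.9 CPM. These are log2 fold changes of -2.92 ± 0.18 (adjusted p = 5.27e-19) and -2.06 ± 0.14 (adjusted p = 5.87e-17), and neither pair of groups overlapped. In RPB8 Clk1 rose from 77.1 and 85.6 to 166 and 158 CPM, 1.99-fold (0.99 ± 0.10, adjusted p = 1.81e-11), a direction that turned to -0.51 under the mitochondrial scaling. The other called changes of Clk1 were small. It rose in RPB3 from 65.7 and 61.3 to 83.0 and 77.5 CPM (0.34 ± 0.11), a call lost without IAA replicate 1 (0.28) or untreated replicate 2 (0.29). In RPB10 it went from 152 and 156 to 178 and 189 CPM (0.25 ± 0.10), a call lost without IAA replicate 2 (0.215) or untreated replicate 1 (0.25), under the replicate block (0.25) and under the mitochondrial scaling, where it turned to -0.005. In RPB7 it fell from 179.7 and 162 to 137 and 137 CPM (-0.32 ± 0.10; -0.25 and not called without untreated replicate 1). In RPB5 the levels were 107 and 83.8 CPM before and 72.6 and 82.8 CPM after IAA (-0.29 ± 0.11), a fall not called without IAA replicate 1 (-0.196) or untreated replicate 1 (-0.11), nor by DESeq2 (-0.21). In RPB1, where Clk4 rose, Clk1 did not pass, at 98.3 and 111 CPM before and 95.5 and 97.3 CPM after IAA (-0.12 ± 0.10).

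Clk3, a further nuclear CLK kinase, rose in RPB1, RPB3, RPB5, RPB7, RPB8 and RPB9 and fell in RPB2 and RPB6. In WT it was at 55.2 and 51.3 CPM before and 54.5 and 50.9 CPM after IAA. The fall in RPB2 was from 52.5 and 50.7 to 19.5 and 16.8 CPM (-1.51 ± 0.15, adjusted p = 7.28e-12) and that in RPB6 from 58.9 and 59.3 to 19.9 and 18.6 CPM (-1.62 ± 0.14, adjusted p = 3.08e-14). After IAA, the 4 libraries of these lines were the only ones of the 52 with Clk3 under 40 CPM. The rise in RPB8 was from 58.6 and 53.1 to 97.0 and 106 CPM (0.86 ± 0.11, adjusted p = 1.55e-09; -0.65 under the mitochondrial scaling). In RPB3 the level rose from 57.2 and 54.1 to 96.0 and 83.8 CPM (0.69 ± 0.10, adjusted p = 2.31e-07). In RPB5 it rose from 65.7 and 57.0 to 92.6 and 93.9 CPM (0.61 ± 0.10), and in RPB1 from 48.1 and 54.6 to 79.6 and 75.2 CPM (0.59 ± 0.11), with 0.081 and 0.023 and no call under the mitochondrial scaling. No called group of Clk3 overlapped its control. The rises in RPB7, from 94.3 and 106 to 133 and 122 CPM (0.35 ± 0.094), and in RPB9, from 52.5 and 61.9 to 77.0 and 68.2 CPM (0.34 ± 0.10), were the smallest. The first was not called without untreated replicate 1 (0.25) and turned to -0.062 under the mitochondrial scaling, and the second was not called without IAA replicate 1 (0.25) or untreated replicate 1 (0.23).

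Clk2, which like its relatives phosphorylates SR proteins in the nucleus, fell in RPB1, RPB3 and RPB5, where Clk3 and Clk4 rose; the difference between genes was not tested. It stood at 67.6 and 61.1 CPM in untreated WT and at 63.6 and 58.1 CPM after IAA. In RPB1 it fell from 67.7 and 69.0 to 37.0 and 41.3 CPM (-0.80 ± 0.11, adjusted p = 2.69e-08). In RPB2 it fell from 61.1 and 59.3 to 17.6 and 11.2 CPM (-2.06 ± 0.16, adjusted p = 1.21e-15), and in RPB6 from 70.8 and 82.1 to 43.0 and 34.4 CPM (-0.98 ± 0.12, adjusted p = 7.67e-10). The RPB2 and RPB6 falls were smaller than those of Clk1 in point estimate, and the treated groups lay wholly below their controls. In RPB3 the level went from 63.2 and 66.6 to 39.6 and 49.2 CPM (-0.55 ± 0.11), a fall that turned to 0.17 under the mitochondrial scaling. Falls in RPB5 (-0.37 ± 0.11) and RPB11 (-0.34 ± 0.10) were small, and neither was called in every fit. The first was not called without RPB5 IAA replicate 1 (-0.30), and the second without RPB11 untreated replicate 1 (-0.304) or RPB11 IAA replicate 2 (-0.305). The single rise of Clk2 was in RPB10, from 72.4 and 69.6 to 101 and 95.4 CPM (0.47 ± 0.10, adjusted p = 0.000148; 0.21 and not called under the mitochondrial scaling). In RPB8, where Clk1, Clk3 and Clk4 rose, Clk2 did not pass (-0.18 ± 0.11), with 58.1 and 70.6 CPM after IAA beside 73.4 and 71.8 CPM, and without IAA replicate 2 it was called lower (-0.345).

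Srpk2, a cytoplasmic kinase that prepares SR proteins for import, fell in RPB1, RPB2, RPB3, RPB5, RPB6, RPB8, RPB9, RPB10 and RPB11. In WT it was at 98.8 and 99.8 CPM untreated and 96.5 and 98.9 CPM after IAA, the highest group means of the 12 h set. The largest fall was in RPB5, from 90.6 and 89.3 to 21.0 and 20.1 CPM, to 22.9% of the untreated level (-2.13 ± 0.12, adjusted p = 9.53e-20). In RPB8 it fell from 88.3 and 89.4 to 22.9 and 21.8 CPM (-1.99 ± 0.13, adjusted p = 3.45e-18). RPB6 went from 91.5 and 89.1 to 31.8 and 28.7 CPM (-1.58 ± 0.12, adjusted p = 1.29e-15). These 3 lines include RPB8, in which Clk1, Clk3 and Clk4 rose, and RPB6, in which they fell. In RPB10 the level fell from 78.5 and 75.0 to 29.1 and 27.5 CPM (-1.44 ± 0.11, adjusted p = 1.34e-14) and in RPB1 from 80.7 and 85 to 35.8 and 26.2 CPM (-1.42 ± 0.11, adjusted p = 4.85e-15). In RPB2, where Clk4 fell 8-fold, Srpk2 fell 2.04-fold, from 65.4 and 62.5 to 33.8 and 28.9 CPM (-1.03 ± 0.13). Smaller falls were seen in RPB3, from 78.8 and 79.5 to 44.8 and 51.3 CPM (-0.72 ± 0.10; 0.032 under the mitochondrial scaling), and in RPB9, from 84.0 and 90.4 to 53.8 and 55.7 CPM (-0.67 ± 0.10). The fall in RPB11 (-0.35 ± 0.10) was not called without IAA replicate 1 (-0.315) or untreated replicate 1 (-0.263). Nor was it called with only the 4 libraries of the line (-0.345), on total counts (-0.259) or under the mitochondrial scaling (-0.235). In RPB7 the groups overlapped, at 81.5 and 65.4 CPM before and 61.3 and 65.5 CPM after IAA, and Srpk2 did not pass (-0.22 ± 0.10), although without untreated replicate 2 it was called lower (-0.35).

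Srpk1, the other SRPK kinase and the mRNA with the highest median level per kilobase in untreated cells, had the narrowest range of changes. In WT it was at 208 and 207 CPM before and 216 and 224 CPM after IAA. It fell in RPB1 from 225 and 221 to 137 and 126 CPM (-0.76 ± 0.081, adjusted p = 3.28e-11), in RPB8 from 229 and 210.1 to 126 and 133 CPM (-0.76 ± 0.083, adjusted p = 6.44e-11) and in RPB5 from 232 and 205 to 133 and 138 CPM (-0.69 ± 0.081, adjusted p = 7.07e-10). A smaller fall was seen in RPB6, from 212 and 215 to 161 and 172 CPM (-0.36 ± 0.082, adjusted p = 0.000182). In none of these 4 lines did the groups overlap, and those of WT, where Srpk1 was not called, did not overlap either. In RPB7 Srpk1 rose from 187 and 196 to 278 and 291 CPM, 1.49-fold and the highest level of any group (0.57 ± 0.077, adjusted p = 3.99e-08; 0.16 and not called under the mitochondrial scaling). In RPB2, the line of the largest CLK falls, Srpk1 did not pass, at 191 and 216 CPM before and 206 and 219.5 CPM after IAA (0.058 ± 0.083). That value depended on the scaling, at 0.30 and called with RLE size factors or DESeq2, -0.80 and called on total counts, and -2.15 and called on mitochondrial mRNAs. Rises in RPB3 (0.20 ± 0.078) and RPB9 (0.19 ± 0.078) were not called when any 1 of the 4 libraries of the line was left out (0.16 to 0.21 and 0.16 to 0.20), nor under the replicate block (0.20 and 0.19).

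**Figure D2:**
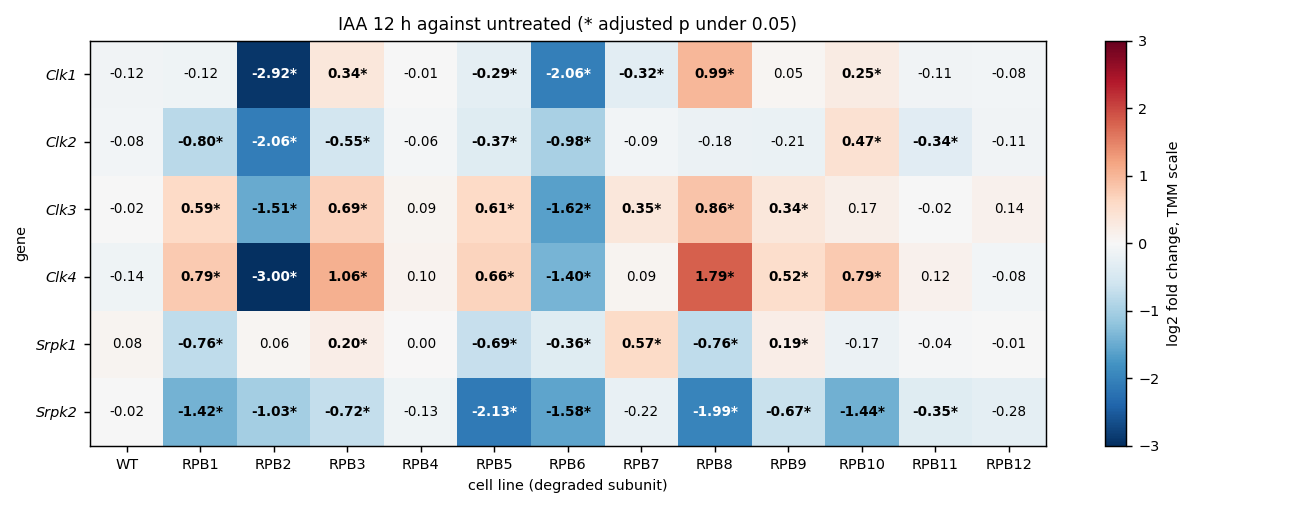
Log2 fold change of 12 h of IAA against untreated on the TMM scale, for the 6 kinase genes (rows) in 13 lines (columns); blue is lower and red higher, and an asterisk marks an adjusted p under 0.05. Srpk2 is blue with an asterisk in 9 lines. Clk1, Clk3 and Clk4 are blue in RPB2 and RPB6 and red in RPB8 and RPB3, palest for Clk1 in RPB3 (0.34). Among values called under either scaling, with libraries scaled to mitochondrial mRNAs Srpk1 in RPB2, Clk1 and Clk3 in RPB8, Clk2 and Srpk2 in RPB3, Clk1 in RPB10 and Clk3 in RPB7 change sign.

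Across the 13 lines, the log2 fold changes of the CLK genes ran closer to each other than to those of the SRPK genes. Pearson's r was 0.959 for Clk1 and Clk4, 0.924 for Clk3 and Clk4 and 0.922 for Clk1 and Clk3, and lower for Clk2 with Clk1 (0.826), Clk4 (0.743) and Clk3 (0.653). For Srpk1 and Srpk2 it was 0.812, and for the 8 pairs of a CLK and an SRPK gene it lay between -0.292 and 0.197. These values describe 13 points from lines with 4 libraries each, and the genes of a line share its libraries and its scaling. RPB2 and RPB6 are the points at the low end for the CLK genes, and r without these lines was not computed. In RPB1, RPB3 and RPB5 the directions parted, with Clk2 lower (-0.80, -0.55 and -0.37) and Clk3 higher (0.59, 0.69 and 0.61). Among 10542 genes that averaged at least 5 CPM, those most like Clk1 over the 13 lines were Mfsd5 (0.983), Cmtr2 (0.980) and Cnot8 (0.979), those most like Clk4 were Lcmt2 (0.984), Chmp1b (0.980) and Zscan29 (0.977), and among the 3 most like Clk3 were Pnrc1 (0.983) and Dyrk3 (0.983). For Clk2 they were Arl6ip6 (0.960), Bub3 (0.956) and Thap3 (0.954). For Srpk2 they were Eif4b (0.952), Mcph1 (0.952) and Plekha2 (0.945), and for Srpk1 Brcc3 (0.936), Setdb1 (0.924) and Cgn (0.923).

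Each response was also set against that of WT, as a difference of log2 fold changes in the same fit. These 12 comparisons share the 4 WT libraries. Of 72 tests, 15 were higher and 22 lower than WT. Among all genes, the responses called higher and lower than WT were, for RPB1 (23.9%, 25.1%), RPB2 (24.3%, 31.2%), RPB3 (12.9%, 15.3%), RPB4 (0.173%, 0.112%), RPB5 (20%, 22.3%) and RPB6 (23.9%, 30.2%). For the remaining lines these shares were, for RPB7 (11.4%, 13.8%), RPB8 (23.9%, 25.6%), RPB9 (8.07%, 9.91%), RPB10 (10.9%, 14.7%), RPB11 (4.68%, 6.61%) and RPB12 (0.195%, 0.335%). All 6 genes passed in RPB6 (54.1% of all genes), 5 in RPB1 (49.1%), RPB2 (55.5%), RPB3 (28.2%) and RPB8 (49.5%), and 4 in RPB5 (42.3%) and RPB10 (25.6%). In RPB9 2 passed (18%), Clk4 at 0.66 and Srpk2 at -0.65, and in RPB7 1 passed (25.2%), Srpk1 at 0.49 ± 0.11. None passed in RPB4, RPB11 and RPB12, with 0.284%, 11.3% and 0.53% of all genes passing in edgeR's test and 0, 1 (Srpk2) and 0 members with an unadjusted p under 0.05 (DESeq2 was not run on these contrasts). Srpk2 differed from WT in 8 lines, all lower, from -2.10 in RPB5 to -0.65 in RPB9. In RPB3 it turned to 0.15 under the mitochondrial scaling. The widest difference from WT was that of Clk4 in RPB2, at -2.86 ± 0.31 (adjusted p = 5.48e-11), and the largest positive one that of Clk4 in RPB8, at 1.93 ± 0.18 (adjusted p = 2.17e-12). The smaller calls rested on single libraries. Clk1 in RPB10 (0.37) was called in 1 of 8 fits that each left out 1 library, that without untreated WT replicate 1, and lay between 0.32 and 0.42 in the others. Clk1 and Clk2 in RPB3 (0.455 and -0.47) were each not called without RPB3 IAA replicate 1 (0.39 and -0.34), RPB3 untreated replicate 2 (0.405 and -0.43), WT IAA replicate 1 (0.38 and -0.43) or WT untreated replicate 2 (0.36 and -0.43). Clk4 in RPB9 was not called without RPB9 IAA replicate 2 (0.48) or WT IAA replicate 2 (0.58). Clk3 gained a call in RPB7 without RPB7 untreated replicate 2 (0.45) and in RPB9 without RPB9 untreated replicate 2 (0.48).

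Responses were compared directly between lines whose subunits lie together in the enzyme or are shared with other polymerases. Of 24 tests, 4 were higher and 11 lower, while the shares of all genes called higher and lower were, for RPB2 minus RPB1 (27.5%, 35.1%), RPB6 minus RPB5 (27%, 31.3%), RPB11 minus RPB3 (6.84%, 5.5%) and RPB7 minus RPB4 (10.8%, 13.7%). Between RPB2 and RPB1, the 2 largest subunits, 5 of the 6 responses differed, against 62.6% of all genes. The response in RPB2 minus that in RPB1 was -3.79 ± 0.29 (adjusted p = 1.2e-15) for Clk4, -2.80 ± 0.22 (adjusted p = 1.5e-15) for Clk1, -2.10 ± 0.19 (adjusted p = 1.79e-13) for Clk3 and -1.26 ± 0.20 (adjusted p = 5.71e-07) for Clk2, beside a median of -0.61 for all genes. Srpk1 responded higher in RPB2 than in RPB1, by 0.82 ± 0.12 (adjusted p = 3.37e-08), a direction that turned to -0.23 on total counts and -0.815 under the mitochondrial scaling. Srpk2 did not pass (0.39 ± 0.18), although it was called without RPB1 IAA replicate 1 (0.63) or RPB2 IAA replicate 2 (0.50). Between RPB6 and RPB5, both shared by all nuclear RNA polymerases, all 6 differed, against 58.3% of all genes. The 4 CLK genes responded lower in RPB6, with differences from -0.61 for Clk2 to -2.23 for Clk3, beside -0.34 for all genes. Srpk2 (0.55 ± 0.18) and Srpk1 (0.33 ± 0.12) responded higher in RPB6 than in RPB5, and these turned to -0.165 and -0.39 on total counts and to -0.88 and -1.11 under the mitochondrial scaling. The Srpk2 difference was not called without RPB6 IAA replicate 1 (0.46), and that of Srpk1 was not called without RPB5 IAA replicate 1 (0.30), RPB5 untreated replicate 1 (0.24) or RPB6 IAA replicate 2 (0.27). Between RPB11 and RPB3, which pair at the base of the enzyme, Clk1, Clk3 and Clk4 differed (3 of 6, against 12.3% of all genes), by -0.45, -0.71 and -0.94, each lower in RPB11. The Clk1 difference was called in only 2 of 8 fits that left out 1 library, those without RPB3 IAA replicate 2 and without RPB11 untreated replicate 2, and lay between -0.50 and -0.27 in the others. Without RPB11 untreated replicate 2 Srpk1 was called too (-0.355), as was Srpk2 without RPB11 untreated replicate 1 (0.46) or RPB3 IAA replicate 2 (0.49). Between RPB7 and RPB4, the stalk, Srpk1 alone differed (1 of 6, against 24.5%), higher in RPB7 by 0.57 ± 0.11 (adjusted p = 8.44e-05).

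At 1 h of IAA, Clk1 and Clk4 fell in RPB1. Clk1 was at 129 and 125 CPM at 0 h and 83.7 and 76.5 CPM at 1 h, a log2 fold change of -0.67 ± 0.10 (adjusted p = 0.000129). Clk4 went from 68.6 and 60.9 to 41.7 and 40.8 CPM (-0.65 ± 0.10, adjusted p = 0.000295). The 1 h levels were 63.1% and 63.8% of the 0 h levels, with no overlap, and both were called in all 4 fits that left out 1 library. Clk3 went from 68.2 and 63.8 to 55.3 and 52.2 CPM (-0.29 ± 0.10, adjusted p = 0.0349), a call that none of those 4 fits kept (-0.34 to -0.25) and that DESeq2 did not make (-0.29). Clk2 (-0.11 ± 0.092), Srpk1 (-0.19 ± 0.071) and Srpk2 (-0.15 ± 0.092) did not pass. The 3 of 6 called in RPB1 compare with 24.9% of 15658 genes (11% called higher and 13.9% called lower).

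In RPB3 and RPB6 none of the 6 was called at 1 h by edgeR or DESeq2, and 0.358% and 1.54% of all genes were called by edgeR, split as higher and lower into RPB3 (0.00639%, 0.351%) and RPB6 (0.939%, 0.6%). Without adjustment, 1 member in RPB3 (Clk1) and 3 in RPB6 (Clk1, Clk3 and Clk4) had p under 0.05 in edgeR. Clk1 was at 100.5 and 97.7 CPM at 0 h and 90.0 and 76.1 CPM at 1 h in RPB3 (-0.26 ± 0.10, adjusted p = 0.569), and without 1 h replicate 1 it was called lower (-0.38). In RPB6 it was at 155 and 135 CPM at 0 h and 110.1 and 123 CPM at 1 h (-0.32 ± 0.092, adjusted p = 0.0864), a difference called under the replicate block (-0.32) and without the filter on low counts (-0.32). Clk4 in RPB6 was at 125 and 102 CPM at 0 h and 93.7 and 97.6 CPM at 1 h, and Clk3 at 38.7 and 35.2 CPM and then 27.3 and 32.4 CPM. At 0 h, RPB6 had the highest Clk4 and the lowest Clk3 of the 3 lines, since Clk4 was at 47.8 and 49.9 CPM and Clk3 at 57.1 and 56.3 CPM in RPB3. The directions at 1 h and 12 h differed in RPB1 for Clk3 and Clk4, lower at 1 h and higher at 12 h. The CPM values before IAA were also unlike in the 2 sets, but whether the starting levels differed cannot be told from sets scaled apart. In RPB1, Clk4 averaged 64.7 CPM at 0 h and 41.3 CPM at 1 h beside 40.9 CPM in the untreated cells of the 12 h set, and Clk3 averaged 66 CPM at 0 h and 53.8 CPM at 1 h beside 51.3 CPM. In RPB6, Clk4 averaged 113.8 CPM at 0 h and 38.9 CPM in untreated cells. Clk3 averaged 36.9 and 59.1 CPM there and Srpk1 212.6 and 213.5 CPM, so these genes did not differ by 1 common factor. The 2 sets were scaled and fitted apart and may differ in library type. Levels are thus not directly comparable between them, and the difference between times was not tested.

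**Figure D3:**
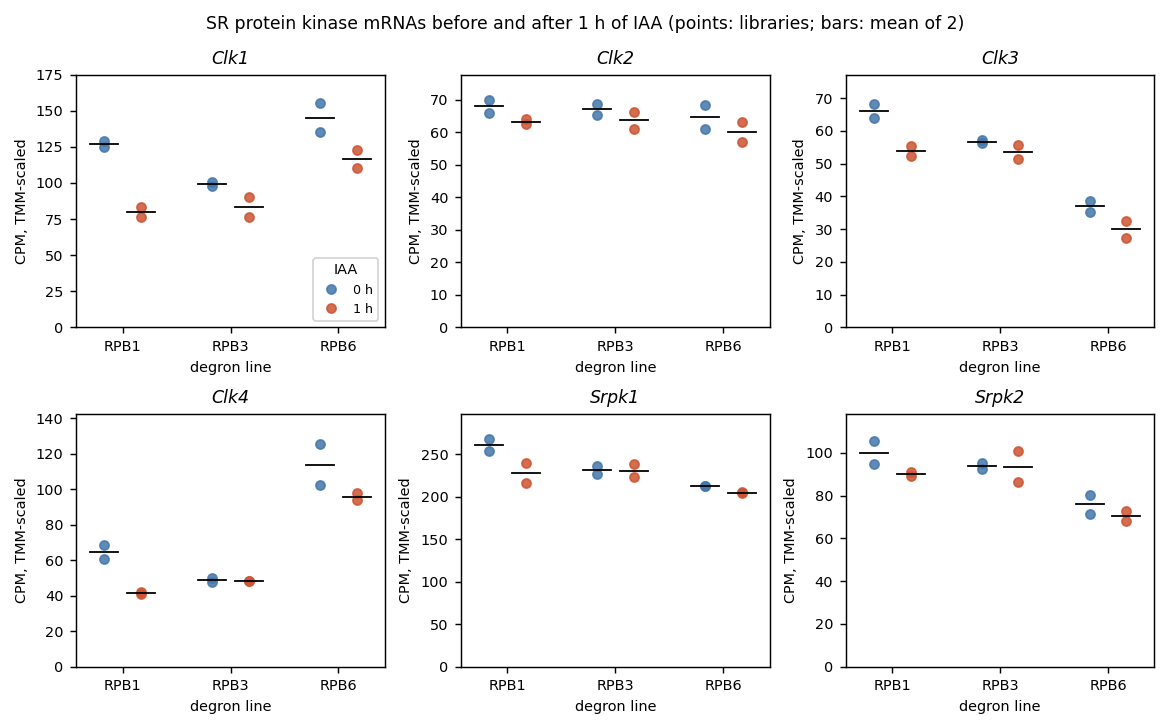
CPM scaled by TMM (linear axis from 0) of each kinase mRNA at 0 h (blue) and 1 h (red) of IAA in RPB1, RPB3 and RPB6; points are libraries and bars the mean of 2. In RPB1 the 1 h libraries of Clk1 and Clk4 lie wholly below the 0 h libraries, and neither Srpk gene was called in any of the 3 lines.

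Untreated degron lines already differed from untreated WT in some of these genes. The 12 comparisons share the 2 untreated WT libraries. Of 72 tests, 12 were higher and 10 lower. Shares of all genes called higher and lower than in WT were, for RPB1 (10.8%, 10.3%), RPB2 (20.2%, 20.6%), RPB3 (15.3%, 14.5%), RPB4 (16%, 17.1%), RPB5 (8.68%, 9.18%) and RPB6 (12.5%, 12%). In the other lines the shares were, for RPB7 (26.9%, 26.8%), RPB8 (9.71%, 10.3%), RPB9 (8.57%, 7.15%), RPB10 (16%, 15.8%), RPB11 (11.8%, 11%) and RPB12 (19.6%, 20.6%). The RPB7 line had the most calls, 5 of 6 against 53.7% of all genes. Clk4 was at 110.3 and 104 CPM there and 35.8 and 34.1 CPM in WT (1.62 ± 0.12, adjusted p = 8.41e-16), Clk1 at 179.7 and 162 CPM beside 83.9 and 90.7 CPM (0.97 ± 0.10, adjusted p = 2.11e-11), and Clk3 at 94.3 and 106 CPM beside 55.2 and 51.3 CPM (0.91 ± 0.10, adjusted p = 2.33e-10). Clk2 was higher too (0.56 ± 0.10), whereas Srpk2 was lower (-0.43 ± 0.10; 0.022 under the mitochondrial scaling). So RPB7 entered the IAA comparison with the highest CLK levels of the untreated lines. In RPB10, 4 of 6 were called (31.8% of all genes): Clk1 (0.82), Clk3 (0.81) and Clk4 (0.65) were higher and Srpk2 lower (-0.37). In RPB12, also 4 of 6 (40.2%), Clk1 (0.56), Clk4 (0.51) and Srpk1 (0.29) were higher and Srpk2 lower (-0.62).

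The remaining untreated lines had 3 or fewer calls. RPB3 had 3 (29.9% of all genes), Clk1 (-0.46), Clk4 (-0.39) and Srpk2 (-0.33), all lower. RPB2 had 2 (40.8%), Srpk2 (-0.64) and Clk1 (-0.25), both lower. RPB4 had 2 (33.1%), with Clk1 higher (0.35; -0.098 under the mitochondrial scaling) and Srpk2 lower (-0.39). RPB5 had 1 (17.9%), Clk4 at 0.37, and RPB9 had 1 (15.7%), Clk1 at -0.35. RPB1, RPB6, RPB8 and RPB11 had none in edgeR's test (21.2%, 24.5%, 20% and 22.8% of all genes), with 2, 2, 0 and 0 members at an unadjusted p under 0.05 (DESeq2 was not run on these contrasts). Srpk2 was thus lower than in WT in 6 untreated lines. Without the WT replicates in turn, Clk1 in RPB2 (-0.28 and -0.16), Clk4 in RPB3 (-0.33 and -0.39), Clk4 in RPB5 (0.43 and 0.37) and Srpk2 in RPB3 (-0.31 and -0.29) were not called, and Clk1 in RPB9 was not called without WT replicate 2 (-0.27). Leaving out a library of the line itself ended the calls of Clk1 in RPB2 without replicate 1 (-0.16), in RPB4 without replicate 1 (0.31) and in RPB9 without replicate 1 (-0.325) or 2 (-0.38), of Clk4 in RPB3 without replicate 2 (-0.27) and in RPB5 without replicate 1 (0.29), and of Srpk2 in RPB3 without replicate 1 (-0.32) and in RPB4 without replicate 2 (-0.33). It made calls of Clk1 and Clk4 in RPB11 without replicate 2 (0.36 and 0.435), Clk2 in RPB6 without replicate 1 (0.35) and Clk4 in RPB4 without replicate 1 (0.42). The number of lower calls over all lines fell from 10 to 6 without untreated WT replicate 2 and to 3 under the replicate block, and became 3 under the mitochondrial scaling and 17 on total counts.

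The substrates of these kinases, and other factors that act on SR proteins, changed in the same libraries. Of 13 SR protein genes, 11 fell and 1 rose in RPB1 at 12 h, against 30.5% and 35.8% of all genes, with a median log2 fold change of -0.80 beside 0.093 for all genes. Those with the smallest adjusted p were Srsf1 (-2.00 ± 0.074), Srsf3 (-2.32 ± 0.092), Srsf2 (-1.40 ± 0.070) and Srsf6 (-1.46 ± 0.081), which are splicing factors with 1 or more RNA-binding domains and an RS tail. In RPB8, 5 fell and 5 rose (30.2% and 31.5% of all genes), with a median of 0.14 beside 0.038 for all genes. The 4 with the smallest adjusted p there were all among those that fell. They were Srsf3 (-2.73 ± 0.10), Srsf1 (-1.11 ± 0.072), Tra2b (-1.02 ± 0.079) and Srsf10 (-1.12 ± 0.092). Over 13 lines, 69 of 169 tests of an SR protein gene were lower (40.8%) and 20 higher (11.8%), the latter 5 under the mitochondrial scaling. Of all gene tests over the same lines, 19.8% were lower and 19.1% higher. At 1 h in RPB1, 3 of 13 fell (13.9% of all genes): Tra2a (-0.59 ± 0.068), Srsf10 (-0.40 ± 0.076) and Srsf11 (-0.22 ± 0.080). Srsf10 (-0.33) and Srsf11 (-0.15) were not called under the mitochondrial scaling. Srsf11 was not called without 0 h replicate 1 (-0.14), 1 h replicate 1 (-0.22) or 1 h replicate 2 (-0.23). Nor was it called by DESeq2 (-0.216), with RLE size factors (-0.216) or without the filter on low counts (-0.192).

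Of 13 other factors that set the phosphorylation, import or storage of SR proteins, 12 could be tested, since Srpk3 did not pass the filter on low counts. In RPB2 at 12 h, 6 fell and 5 rose, against 34% and 27.9% of all genes. Ppp1r8, a nuclear regulator of protein phosphatase 1 (-2.28 ± 0.13), and Dyrk1a, a kinase that also phosphorylates splicing factors (-2.94 ± 0.17), fell. Tnpo3, the import receptor (1.23 ± 0.074), and Ppp1ca, a catalytic subunit of protein phosphatase 1 (1.79 ± 0.12), rose, and both turned lower under the mitochondrial scaling (-0.99 and -0.42). Over 13 lines, 54 of 156 tests were lower (34.6%) and 21 higher (13.5%), the latter 6 under the mitochondrial scaling. Other kinases of the CMGC group, the kinase family to which CLK and SRPK proteins belong, gave 110 lower (35.3%) and 44 higher (14.1%) of 312 tests over the 13 lines, the latter 17 under the mitochondrial scaling. In RPB2, 19 of 24 fell and 4 rose, with a median of -1.077, among them Cdk1 (-3.34 ± 0.14), a mitotic kinase, and Cdk7 (-2.85 ± 0.16), a kinase of the general transcription factor TFIIH. Csnk2a2 (-1.60 ± 0.092) fell and Cdk4 (1.76 ± 0.081) rose in that line, the latter turning to -0.445 under the mitochondrial scaling. The medians of the CMGC list and of the 6 SR protein kinases in RPB2, -1.077 and -1.785, were both below the -0.19 of all genes tested.

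The scaling of the libraries moved the changes of all genes together in some lines. Mitochondrial mRNAs are made by another polymerase, and scaling to their summed counts gave a median log2 fold change over all genes of -2.32 in RPB2, -2.08 in RPB6, -1.43 in RPB8, -0.47 in RPB1, -0.46 in RPB5, -0.38 in RPB7, -0.24 in RPB10, -0.14 in RPB9, 0.12 in RPB4, 0.11 in RPB11 and 0.80 in RPB3. On total counts it was -1.03 in RPB2, -0.75 in RPB6, -0.11 in RPB8, 0.29 in RPB1, 0.24 in RPB3 and 0.165 in RPB5. At 1 h the mitochondrial scaling moved it to 0.12 in RPB6. Mitochondrial mRNAs took 1.04% to 1.58% of the counts in untreated RPB2, RPB6 and RPB8 libraries and 2.66% to 3.80% after IAA. Whether they held steady per cell was not tested. In RPB3 the share was 0.534% in IAA replicate 1 and 1.72% in IAA replicate 2, beside 1.27% and 1.30% in the untreated libraries, so the mitochondrial values of that line rest on libraries that differ. Without that replicate, in an alternative added after seeing the data, Clk2, Srpk2 and Clk4 in RPB3 were called under the mitochondrial scaling with the same direction as under TMM (-0.63, -0.85 and 0.79), Clk1 (0.061) and Clk3 (0.36) lost their calls, and Srpk1 was at -0.006 with no call. A change of scaling moves all genes of a library by about the same amount, so the position of a gene relative to the median of all genes carries no separate information under each scaling.

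**Figure D4:**
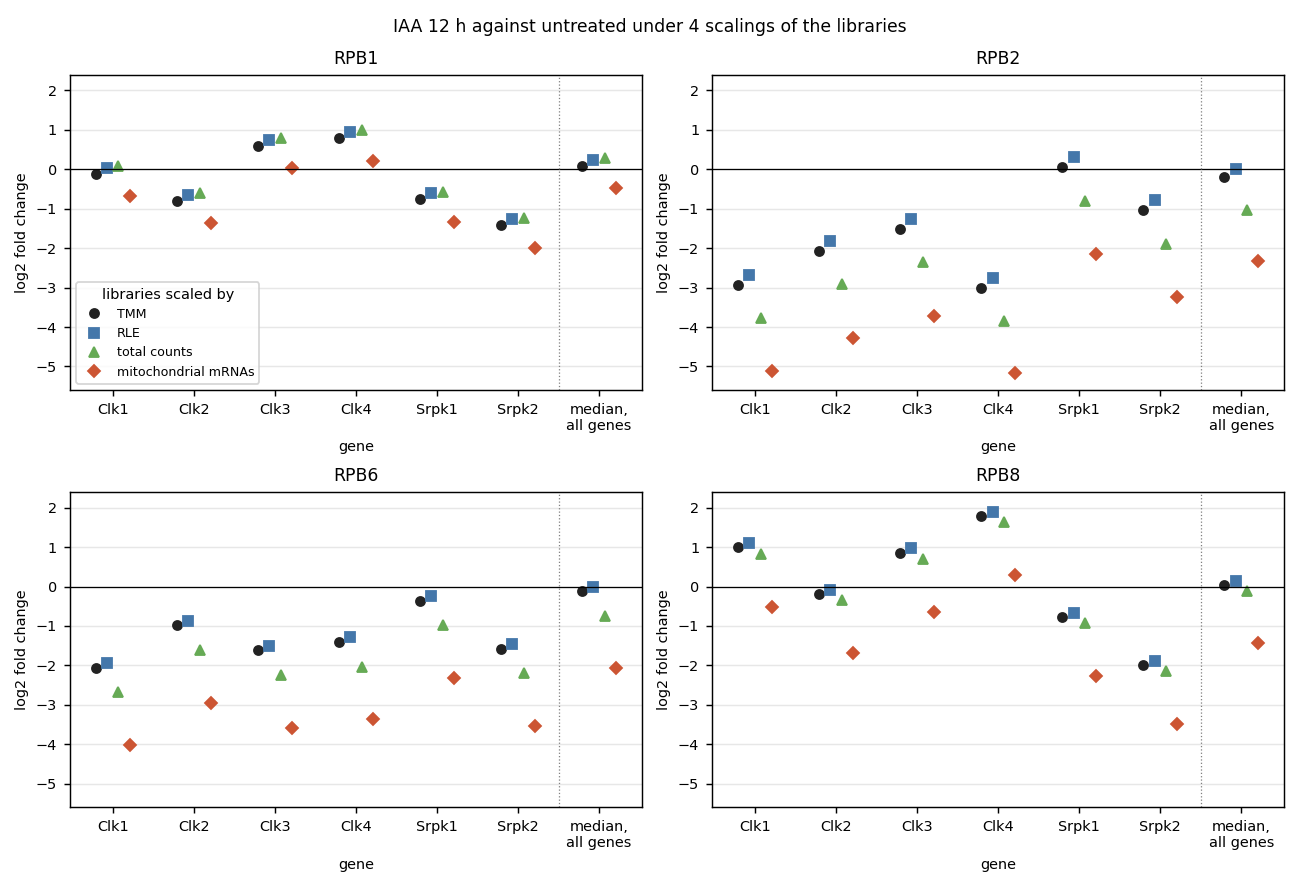
Log2 fold change (linear axis) of 12 h of IAA against untreated for the 6 kinase genes and the median of all genes, in RPB1, RPB2, RPB6 and RPB8, with libraries scaled by TMM, RLE, total counts or mitochondrial mRNAs. In RPB8, Clk1 and Clk3 are above 0 under 3 scalings and below 0 under the mitochondrial one (-0.51 and -0.65), a shift shared by the median of all genes (-1.43).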

How the data were processed

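RNA-seq was read from 64 libraries of mouse ES cells, 2 per group. The deposited table holds raw counts per gene, made by the authors with cutadapt 1.18, STAR and featureCounts on mm10, tools and build that the submitters' processing notes list without roles. 4 columns matched no sample and were not used, and fly spike-in counts were not analysed here. From the counts, edgeR 4.0.16 (R 4.3.3) was used with its filter on low counts, TMM factors and quasi-likelihood F-tests. The 52 libraries of the 12 h set (17928 genes, 26 residual degrees of freedom) and the 12 of the 1 h set (15658 genes, 6) were fitted apart. Log2 fold changes are given with their standard errors and p-values are Benjamini-Hochberg adjusted over all genes tested, called under 0.05. Alternatives were DESeq2 1.42.0, RLE, total-count and mitochondrial scaling, no filter, only the 4 libraries of a line, a replicate block and leaving out each library; fits without a library kept the dispersion trend of the full fit. The code was tested on simulated data. From the lists of SR protein genes, other factors and CMGC kinases, up to 4 genes per comparison described are named, those with the smallest adjusted p among called genes; marker lists were summed as CPM. The 6 members and the lists were chosen with earlier results of these data known. For each member the 3 genes with the highest Pearson r of the 12 h changes over the 13 lines were named, of which 1 is not reported here.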

Additional observations from a re-analysis of the deposited data

Results flagged for a closer look

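The differences of responses that passed edgeR's interaction contrast (adjusted p under 0.05) are given here as differences of log2 fold changes at 12 h, each degron line minus WT or 1 degron line minus another. The contrasts against WT share the 4 WT libraries.

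For Clk1, the response minus that of WT was 0.368 in RPB10, -2.805 in RPB2, 0.455 in RPB3, -1.944 in RPB6 and 1.111 in RPB8. Between lines, Clk1 differed by -0.451 for RPB11 minus RPB3, -2.802 for RPB2 minus RPB1 and -1.773 for RPB6 minus RPB5.

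For Clk2, the response minus that of WT was -0.723 in RPB1, 0.548 in RPB10, -1.985 in RPB2, -0.47 in RPB3 and -0.901 in RPB6. Between lines, Clk2 differed by -1.262 for RPB2 minus RPB1 and -0.611 for RPB6 minus RPB5.

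For Clk3, the response minus that of WT was 0.609 in RPB1, -1.491 in RPB2, 0.707 in RPB3, 0.624 in RPB5, -1.604 in RPB6 and 0.876 in RPB8. Between lines, Clk3 differed by -0.708 for RPB11 minus RPB3, -2.1 for RPB2 minus RPB1 and -2.229 for RPB6 minus RPB5.

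For Clk4, the response minus that of WT was 0.928 in RPB1, 0.933 in RPB10, -2.861 in RPB2, 1.197 in RPB3, 0.797 in RPB5, -1.264 in RPB6, 1.933 in RPB8 and 0.66 in RPB9. Between lines, Clk4 differed by -0.936 for RPB11 minus RPB3, -3.789 for RPB2 minus RPB1 and -2.061 for RPB6 minus RPB5.

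For Srpk1, the response minus that of WT was -0.843 in RPB1, -0.766 in RPB5, -0.44 in RPB6, 0.493 in RPB7 and -0.845 in RPB8. Between lines, Srpk1 differed by 0.819 for RPB2 minus RPB1, 0.326 for RPB6 minus RPB5 and 0.572 for RPB7 minus RPB4.

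For Srpk2, the response minus that of WT was -1.396 in RPB1, -1.415 in RPB10, -1.006 in RPB2, -0.698 in RPB3, -2.105 in RPB5, -1.554 in RPB6, -1.966 in RPB8 and -0.648 in RPB9. Between lines, Srpk2 differed by 0.55 for RPB6 minus RPB5.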

How the results depend on the processing

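Of the 46 calls at 12 h, 21 were kept under all alternatives run and 34 under all but the mitochondrial scaling, and 8 uncalled values gained a call under at least 1. Leaving out 1 library reversed no call in any comparison: at 12 h it kept the side of the threshold in 286 of 312 fits of a gene, and the number of lower calls in untreated lines against WT ranged from 6 to 10. No pairing by replicate number was seen at 12 h, where same-numbered deviations correlated between -0.148 (RPB7) and 0.043. These values cannot show whether same-numbered libraries were prepared together. The replicate block removed 3 of the 46 calls at 12 h (the Srpk1 count of higher calls went from 3 to 1) and 8 of the untreated-line calls (lower calls from 10 to 3), and crossing the RPB7 numbers, chosen after seeing the data, changed 0 of 6 calls.

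Scaled to mitochondrial mRNAs, the 12 h values that turned were Clk1 in RPB10 (-0.005) and RPB8 (-0.511), Clk3 in RPB7 (-0.062) and RPB8 (-0.654), Clk2 (0.172) and Srpk2 (0.032) in RPB3, and Srpk1 in RPB2 (-2.148). Against WT, Clk2 (0.343) and Srpk2 (0.146) in RPB3 and Clk1 (-0.303) and Clk3 (-0.546) in RPB8 turned. Srpk1 and Srpk2 turned for RPB2 minus RPB1 (-0.815 and -1.247) and for RPB6 minus RPB5 (-1.111 and -0.877), and in untreated lines Clk1 in RPB4 (-0.098) and Srpk2 in RPB7 (0.022). In RPB2, Cdk4 (-0.445), Ppp1ca (-0.42) and Tnpo3 (-0.991) turned. Counts of higher calls became 1 for Clk1, 0 for Clk2, 1 for Clk3, 1 for Clk4 and 1 for Srpk1 at 12 h, 4 against WT, 0 between lines, 7 in untreated lines (3 lower), 5 for SR protein genes, 6 for the other factors and 17 for CMGC kinases. Without RPB3 IAA replicate 1 as well, added after seeing the data, Srpk1 in RPB3 was -0.006. On total counts, Srpk1 in RPB2 was -0.797, Srpk1 and Srpk2 were -0.229 and -0.658 for RPB2 minus RPB1 and -0.39 and -0.165 for RPB6 minus RPB5, higher calls between lines were 1 and lower calls in untreated lines 17. Srpk1 had 1 higher call without the filter on low counts, and Clk1 had 2 lower calls with only the 4 libraries of each line. The cause was not tested. Depth limits Clk4 in RPB2 most, at 8 counts in each IAA library.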
